A study of Cynoglossus semilaevis with 30 samples.

Results

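Homeobox genes of a sea flatfish, the Chinese tongue sole (Cynoglossus semilaevis), were taken as every gene of the deposited table whose description contained the word homeobox in any case, which gave 226 of 22292 genes. RNA had been sequenced from brain, pituitary, gonad (the ovary), muscle and liver of large females and of small females, all 1.7 years old, with no other treatment or genotype given by the labels. Each of the 10 tissue and size groups had 3 libraries, 30 in all. A library held the RNA of 2 pooled fish, and the series' design text names 6 fish per size class, so the spread between libraries was that between pools. The comparison of the size classes asks which genes differ in tissues that govern growth and reproduction. Genes are given by the table's symbol, or by their RefSeq symbol where the table had only a locus number. Genes that carry a homeodomain but whose description lacks the word, such as genes of the POU, iroquois and islet families, were not members. A list of such genes by name, which holds no iroquois genes, is given apart at the end.

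Homeodomain proteins fold a short stretch of helices into the groove of DNA and switch on or off the genes that give a region or a cell type its identity. Hox genes lie in clusters, and their order along the cluster follows the order in which they act from head to tail in the embryo. Members of the LIM, sine oculis, paired-like, NKX and distal-less families specify neurons, the pituitary, muscle and other organs, and the TALE family (meis, pknox, tgif) supplies partners that bind DNA beside Hox proteins. In adult tissue many of these genes stay on in the cell types that they helped to form. In fish ovary, much of the RNA is the store that the oocyte lays down for the early embryo.

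Library totals ran between 6130667 and 10504899 estimated counts. In 3 groups the libraries resembled each other more closely than in any other group, with a chi-square per gene of 1.69 to 1.85 between small pituitary libraries, 1.77 to 1.92 between small muscle libraries and 1.94 to 2.51 between large gonad libraries, against 5.41 to 47.8 in the other 7 groups, where 1 would be sampling noise alone. No label says how pools were drawn or whether these libraries are separate preparations, and p-values that rest on them may measure technical spread. The summed level of 6 pituitary hormone genes was at most 0.0818% of its pituitary level in any library of another tissue. The sum of 10 liver markers reached 5.25% of its liver level in brain and 2.52% in muscle. In brain most of that sum was apoa1 (mean 1579.01 FPKM) and tfa (1317.99 FPKM), while the other liver markers averaged 1.36 to 33.19 FPKM. Large pituitary replicate 2 held 13 brain markers at 12.3% of their brain level, against 4.25% and 4.38% in the other large and 3.93% to 4.13% in the small pituitary libraries. The 7 ovary markers stood at 4.36%, 11.1% and 4.16% of their gonad level in large muscle and at 1.92%, 2.11% and 2.11% in small muscle, and at 1.36% in large brain replicate 3, against 0.0688% to 0.359% in the other brain libraries.

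Homeobox genes were sparsely and selectively expressed. Of the 226, 135 (59.7%) reached a mean of at least 1 FPKM (fragments scaled to transcript length and library size) in some tissue, against 86.4% of all 22292 genes, and 5 had no count in any library. Of these 135, 68 (50.4%) reached that level in exactly 1 tissue, against 16.2% of all genes at that level somewhere. Their median tau, an index of tissue restriction that is 0 for even and 1 for single-tissue expression, was 0.90, against 0.79 for all genes. The brain had 95 members at 1 FPKM or more, the pituitary 61, the gonad 47, the muscle 38 and the liver 21. The summed FPKM of all members followed another order, with 1284 in gonad, 1187 in pituitary, 488.4 in brain, 316.2 in muscle and 82.97 in liver. The gonad and pituitary sums rested on a few very abundant transcripts, whereas the brain had many members of moderate level: 9 brain members reached 10 FPKM, against 22 pituitary members.

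**Figure D1:**
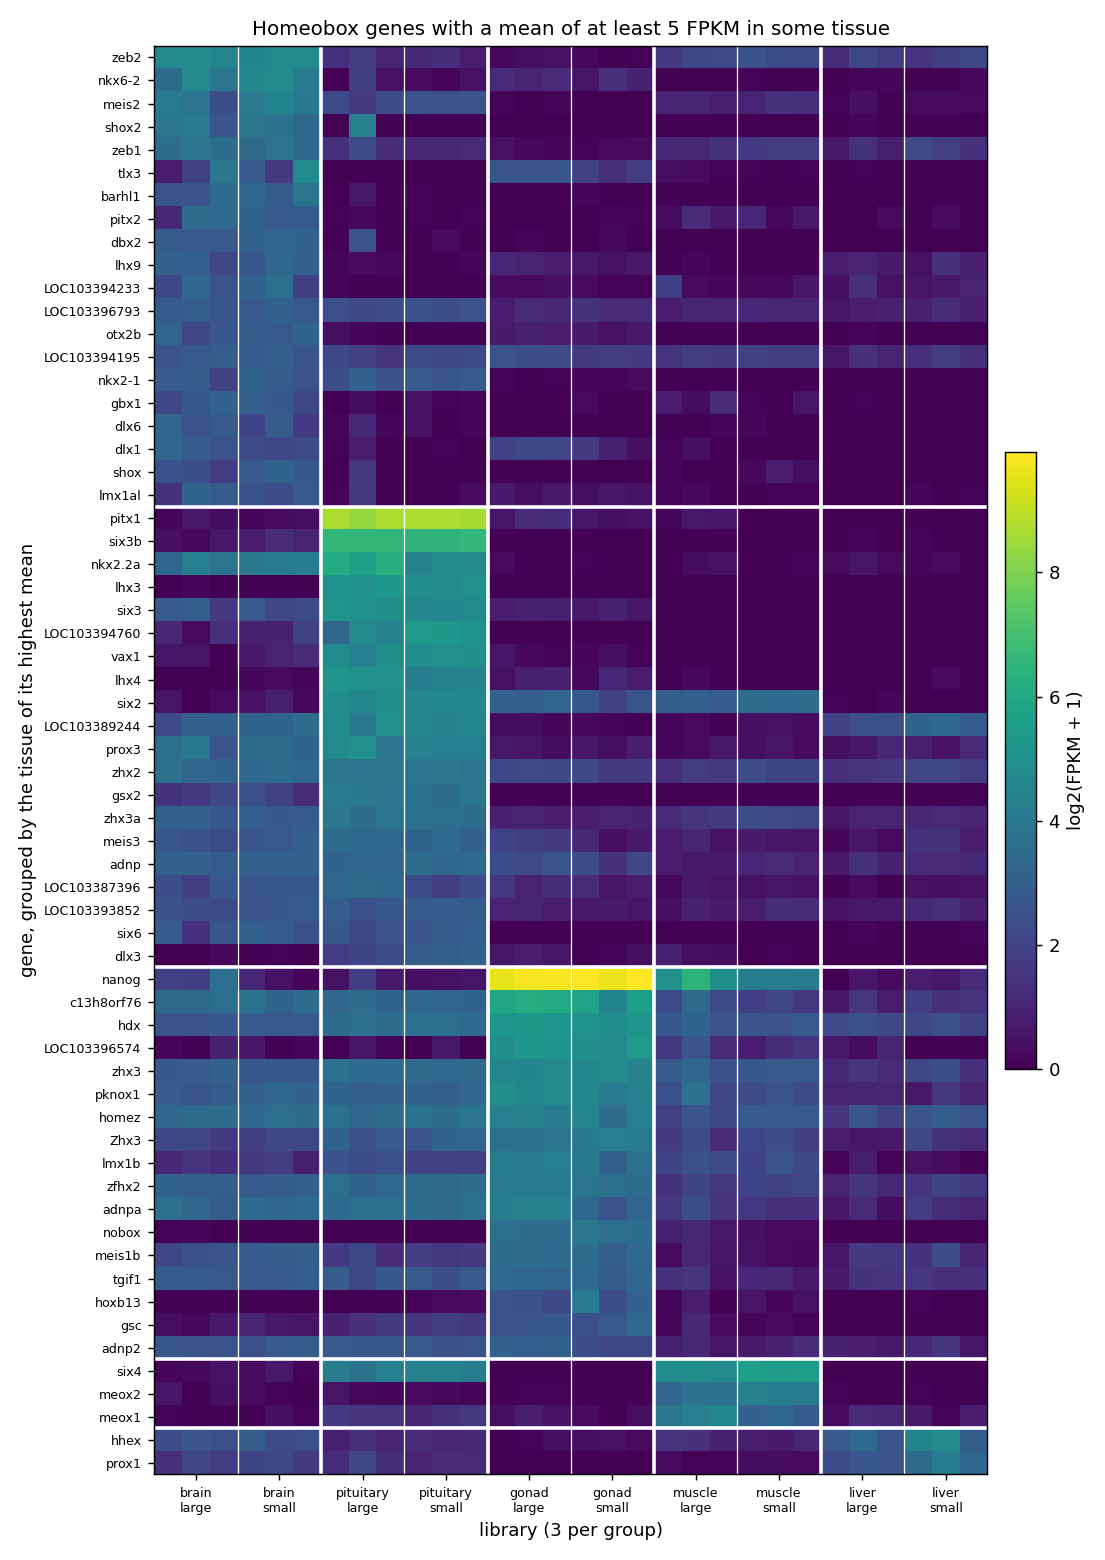
Level of 62 of the 64 homeobox genes that averaged 5 FPKM or more in some tissue, as log2(FPKM + 1), in each of the 30 libraries (columns, with the 3 large before the 3 small libraries of each tissue). Rows are grouped by the tissue of the highest mean, and each tissue has a block of its own, with nkx2.2a, shared by pituitary and brain, among the exceptions.

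A fit over all 30 libraries held 141 members among 19511 genes. A member could pass its filter on low counts through a single tissue, and many genes are named for a high level in a tissue. The counts and the p-values for level between tissues given below therefore describe where members were high and support nothing more. By edgeR's quasi-likelihood test, 40 members were higher in brain than in each of the other 4 tissues at an adjusted p under 0.05 in all 4 contrasts (background 14.9% of all genes), 20 in pituitary (background 8.27%), 25 in gonad (background 25.7%), 17 in muscle (background 10.4%) and 4 in liver (background 9.78%). As shares of the 141 members these are 28.4%, 14.2%, 17.7%, 12.1% and 2.84%, so the brain and pituitary shares stood above their background, the muscle share near it, and the gonad and liver shares below it. Against the mean of the other 4 tissues, 88 members were higher in brain (background 43.9%), 46 in pituitary (background 38.9%), 47 in gonad (background 39.2%), 47 in muscle (background 40.5%) and 19 in liver (background 27.3%).

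The scale matters between tissues. Among genes of at least 1 FPKM in both tissues, the edgeR difference (TMM scaling) stood a median of 1.91 log2 units above the log2 ratio of FPKM for muscle against brain, 1.83 for muscle against pituitary, 1.58 for muscle against gonad and 1.98 for liver against brain, but only 0.08 for pituitary against brain. Levels below are therefore given in FPKM, with edgeR differences named as such. On FPKM alone, all 6 libraries of the tissue lay above the other 24 for 27 members in brain (background 14.7%), 20 in pituitary (background 8.89%), 21 in gonad (background 23.0%), 6 in muscle (background 3.14%) and 2 in liver (background 2.77%).

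The pituitary was marked by the factors known to build it. Among the 8 most abundant members there were pitx1, six3b, nkx2.2a, lhx3, six3 and an Lhx1-like gene (LOC103394760). Pitx1, which acts at the start of pituitary formation, averaged 403.01 ± 33.89 FPKM (SD, n = 6) in pituitary and at most 0.73 FPKM in any other tissue. Its single libraries held 418.85, 335.57 and 422.62 FPKM in large and 419.98, 419.46 and 401.56 FPKM in small pituitary, so the size classes overlapped. The LIM factor lhx3, which the mouse needs to form the gland, averaged 31.35 FPKM, and its partner lhx4 25.54 FPKM. The edgeR log2 difference, brain minus pituitary, was -10.54 for pitx1, -9.86 for lhx3 and -7.35 for six3b. The sine oculis gene six3b, an eye and forebrain factor, averaged 91.78 ± 3.67 FPKM there and 0.67 FPKM in brain. Vax1, a factor of the ventral forebrain, averaged 27.23 FPKM and gsx2, known from the ventral telencephalon, 13.54 FPKM.

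Other pituitary members were shared with brain. Six6, a factor of the eye, hypothalamus and pituitary, had a pituitary mean of 5.48 FPKM and a brain mean 96.1% as high, and edgeR gave a brain minus pituitary difference of -0.15 (SE 0.34, adjusted p = 0.743). Nkx2-1, which marks the hypothalamus, had a pituitary mean 95.5% of its brain mean of 5.89 FPKM. The prospero-like gene prox3 averaged 21.01 FPKM in pituitary and 10.23 FPKM in brain. As all samples were bulk tissue, fewer cells of a type and less RNA per cell cannot be told apart in these or the following comparisons.

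In brain, the 8 most abundant members were zeb2, nkx6-2, nkx2.2a, meis2, shox2, zeb1, a ZHX1-like gene (c13h8orf76) and prox3. Zeb2, a zinc-finger factor of neurons and glia, led with 24.26 ± 2.22 FPKM (SD, n = 6), against 3.52 FPKM in muscle, the next tissue. Nkx6-2, a factor of oligodendrocytes and ventral neural tube, averaged 19.07 ± 6.29 FPKM and at most 1.06 FPKM elsewhere. The brain members covered the length of the neural tube. Forebrain genes were on, with dlx1 at 5.19, dlx6 at 5.23, dlx5 at 3.92, emx2 at 2.64 and otx2b at 6.32 FPKM. The hypothalamic factor otp averaged 4.19 FPKM and was at most 0.02 FPKM in the other tissues. En1 and en2, which mark the border of midbrain and hindbrain, averaged 2.49 and 2.27 FPKM, and barhl1, known from cerebellum and hindbrain, 8.24 FPKM. These brain genes were present at different levels from pool to pool: tlx3, a factor of sensory neurons, had 0.75, 2.68 and 14.31 FPKM in large brain and 6.31, 2.22 and 27.11 FPKM in small brain.

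Several brain genes appeared in 1 pituitary library. Shox2, a short-stature homeobox gene known from thalamus and hindbrain, had 0, 19.28 and 0 FPKM in large pituitary and 0 FPKM in all 3 small pituitary libraries, while it averaged 11.94 FPKM in brain. Large pituitary replicate 2 also held dbx2 at 4.88 FPKM and gsx1 at 2.49 FPKM, where the other 5 pituitary libraries reached at most 0.19 and 0.15 FPKM. Of 34 members with at least 2 FPKM in brain and under 0.5 FPKM in the other 5 pituitary libraries, 18 were highest in this library. The limit set on the other 5 libraries itself favours this library, and the share over all genes was not taken, so the count only describes. The level of such genes in this library was uneven, with a median of 4.25% of the brain mean over the 34. It stood at 161% for shox2, 69.3% for dbx2, 78.2% for gsx1 and 0% for otp, en1, en2 and emx2. This is the library with the raised brain markers, and it also held more of the muscle and liver markers than the other pituitary libraries. The part of such cells or their RNA in these values was not tested.

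In gonad, 1 gene outweighed all others. Nanog, which keeps mammalian stem cells pluripotent and in zebrafish is a maternal factor that starts the embryo's own transcription, averaged 893.21 ± 83.69 FPKM (SD, n = 6), the highest level of any member in any tissue. The table describes this gene as Hox-A10-like, whereas RefSeq gives its locus the symbol nanog, and no Hox gene lies next to it, so it is not counted among the Hox genes here. It had 775.43, 893.68 and 921.28 FPKM in large and 987, 814.91 and 966.94 FPKM in small gonad. The other abundant gonad members were c13h8orf76 at 53.77 FPKM, hdx (highly divergent homeobox) at 34.61, an Lhx8-like gene (LOC103396574) at 33.02, zhx3 at 23.42, pknox1 at 22.80, homez at 17.58 and Zhx3, a further locus of that name, at 14.56 FPKM. Lhx8 and nobox are oocyte factors that mice need for follicles to form and grow. The member named lhx8 itself did not pass the filter on low counts of the fit over all libraries. Nobox averaged 11.64 ± 1.32 FPKM in gonad, was 0.05 FPKM in brain and 0 in pituitary and liver, and reached 0.55 FPKM in muscle. The gonad minus muscle difference by edgeR was 3.41 (SE 0.39) for nanog, 3.06 (SE 0.19) for nobox and 2.59 (SE 0.38) for the Lhx8-like gene, with adjusted p of 9.48e-09, 1.51e-11 and 8.93e-07.

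In muscle, six4 and mesenchyme homeobox genes were abundant. Six4, which acts in the myogenic program together with eya co-factors, averaged 36.71 ± 10.25 FPKM (SD, n = 6), and meox2 and meox1, genes of somites and muscle precursors, 14.20 and 12.85 FPKM. Also among the top 8 were nanog at 32.66, six2 at 8.68, zhx3 at 6.10 and hdx at 5.79 FPKM. Six4 was higher in muscle on both scales, with 17.46 FPKM in pituitary and an edgeR difference, pituitary minus muscle, of -2.88 (SE 0.19, adjusted p = 1.69e-11). Meox2 was nearly absent outside muscle, at most 0.20 FPKM.

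The liver had few members. Hhex and prox1, which the liver bud of the mouse needs, led with 12.16 ± 8.58 and 8.52 ± 5.04 FPKM (SD, n = 6). They were followed by the prospero-like LOC103389244 at 5.95, homez at 4.43, hdx at 3.68, a motor neuron and pancreas homeobox gene (LOC103392494) at 2.75, zeb2 at 2.54 and zhx2 at 2.37 FPKM. By edgeR, brain minus liver was -3.19 (SE 0.25, adjusted p = 1.39e-11) for hhex and -3.57 (SE 0.25, adjusted p = 9.2e-13) for prox1. LOC103392494 had 1.14, 2.09 and 5.26 FPKM in large and 1.94, 2.85 and 3.24 FPKM in small liver. The 3 pancreas markers also differed widely there, with 156%, 69.6% and 216% of their liver mean in large and 16.3%, 44.0% and 97.7% in small liver, and their part in the liver values was not tested.

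Summed by blocks of paralogue groups, the Hox genes followed the order of their clusters from tissue to tissue, though not each single gene did. There were 47, by their descriptions, and of the 45 that could be placed on the RefSeq map 42 lay next to another placed Hox gene. Hoxc12, not among these 42, lay next to a locus named hoxc11a, while the member hoxc11 was not placed. The 20 genes of paralogue groups 1 to 5, those nearest the head end, summed to 24.4 FPKM in brain, against 4.74 in gonad, 4.05 in muscle, 3.29 in liver and 0.825 in pituitary. The 13 genes of groups 6 to 9 summed to 19.8 FPKM in muscle and 10.1 in brain, but 2.6 in gonad and 0.495 in pituitary. They include LOC103385126 (1.57 FPKM in muscle and 0.74 in brain), put in group 6 by its description, although it lies between cbx5 and hoxc4a on the map. Within this block, hoxb6 had 2.89 FPKM in brain and 0 in muscle, and hoxb8 2.33 FPKM in brain and 1.61 in muscle. The 14 genes of groups 10 to 13, those nearest the tail, summed to 20.7 FPKM in gonad, against 3.0 in muscle, 0.532 in pituitary and 0.185 in brain. Within this block, the Hox-A10-like gene LOC103394228 had 1.75 FPKM in gonad and 1.62 in muscle. By edgeR it was lower in gonad, with a gonad minus muscle difference of -1.34 (SE 0.34). The highest gene of each block was the Hox-A2a gene LOC103394233 in brain (6.52 FPKM), the Hox-B6a-like gene LOC103393559 in muscle (4.95 FPKM) and hoxb13 in gonad (6.88 FPKM). In pituitary no Hox gene reached 0.5 FPKM. The brain sum of groups 1 to 5 rested much on small brain replicate 2 and was 15.5 FPKM without it.

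**Figure D2:**
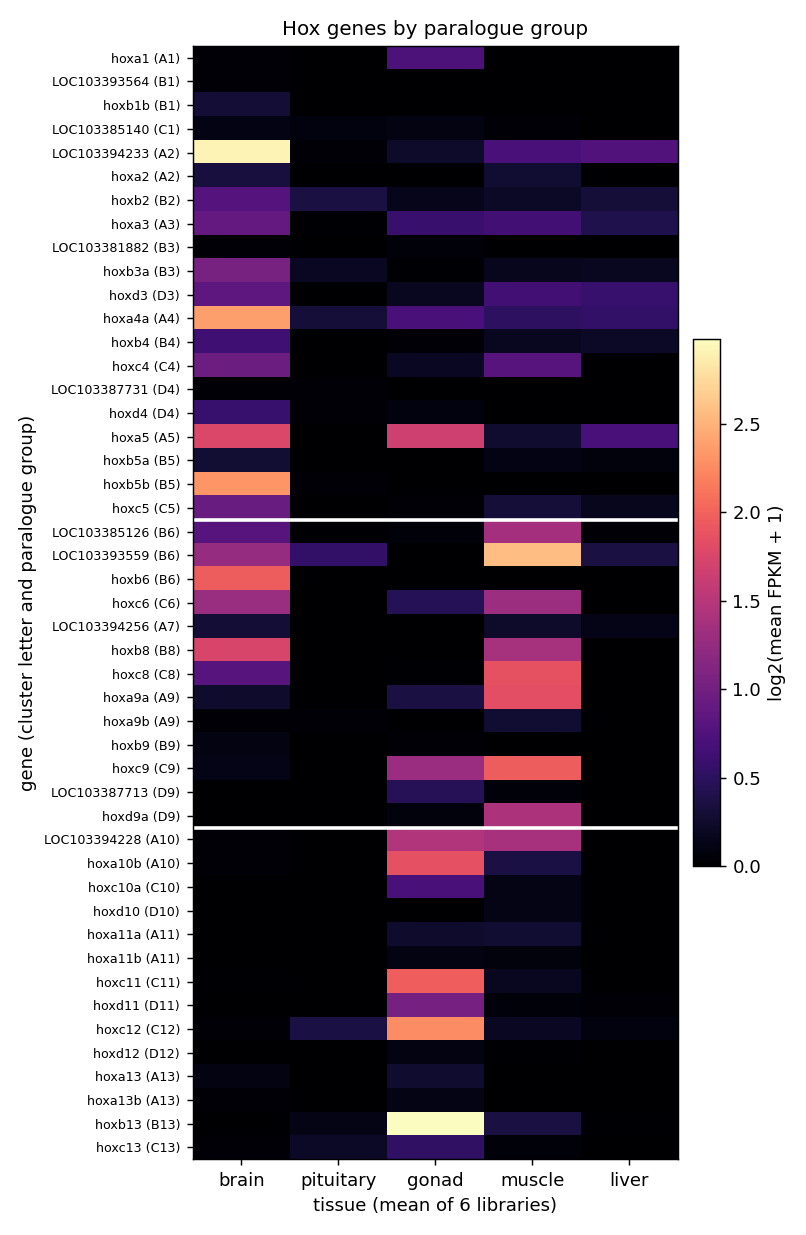
Mean level, as log2(mean FPKM + 1) over 6 libraries, of 47 Hox genes in the 5 tissues, ordered by paralogue group from 1 (top) to 13 (bottom), with lines after groups 5 and 9. By block, the bright cells move from brain in groups 1 to 5 to muscle in groups 6 to 9 and gonad in groups 10 to 13. Single genes such as hoxb6 and hoxb8 are brighter in brain than in muscle, and the pituitary and liver columns stay dark.

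The order of the sums held in each library of muscle and gonad and was less even in brain. Groups 6 to 9 summed to 17.4, 20.5 and 17.3 FPKM in large and 21.7, 20.8 and 21.4 FPKM in small muscle. Groups 10 to 13 summed to 20.5, 18.9 and 17.8 FPKM in large and 28.2, 18.4 and 20.4 FPKM in small gonad. All Hox genes together summed to 19.5, 45.7 and 12.5 FPKM in large brain and to 39.8, 86.5 and 4.19 FPKM in small brain. The size classes overlapped in brain, and 1 pool of each class was low. Groups 1 to 5 summed to 8.55, 24.8 and 12.3 FPKM in large and 28.1, 68.7 and 3.81 FPKM in small brain, so that small brain replicate 3 lay below large muscle replicate 1 (8.15 FPKM). Groups 6 to 9 summed to 10.5, 20.8 and 0 FPKM in large and 11.4, 17.7 and 0.38 FPKM in small brain. In large brain replicate 1 they stood above groups 1 to 5.

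The Hox partners were broader. Pknox1, a TALE partner of Hox and Pbx proteins, was highest in gonad (22.80 FPKM) and was above 1 FPKM in all 5 tissues, as was tgif1, a TALE repressor, with 8.71 FPKM in gonad and 6.25 FPKM in brain. Meis2, a Hox co-factor, was highest in brain with 14.45 FPKM, meis1b in gonad with 9.89 FPKM and meis3 in pituitary with 9.13 FPKM. Of the 226 members, 11 (4.87%) reached 1 FPKM in all 5 tissues, against 32.3% of all genes. They were the zinc-finger genes zhx2, zhx3, Zhx3, zfhx2, adnpa and c13h8orf76, the leucine-zipper gene homez, hdx, pknox1, tgif1 and LOC103394195, a homeobox-containing protein 1-like gene. The zinc-finger and zipper members as a class held 20 of 21 genes at 1 FPKM or more in some tissue, while 20 of 47 Hox genes did.

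In large against small females, few members changed, and counted over both directions their shares were near or below those of all genes tested. In muscle the share that fell was higher, at 17.6% of members against 10.4% of all genes. By edgeR (adjusted p under 0.05, two-sided, 6 libraries per tissue), 5 of 63 tested members changed in pituitary (7.94%, background 5.82%), 11 of 61 in gonad (18.0%, background 24.5%), 14 of 51 in muscle (27.5%, background 23.5%), and 0 of 100 in brain (background 0.0118%) and 0 of 32 in liver (background 1.31%). At an unadjusted p under 0.05, 11 of 100 members passed in brain (background 6.33%) and 5 of 32 in liver (background 20.1%), and DESeq2 called 1 in brain and 2 in liver. The median log2 change of members was -0.02 in pituitary, 0.06 in gonad, -0.35 in muscle, -0.08 in brain and -0.09 in liver, against 0.02, 0.03, 0.03, -0.00 and -0.02 for all genes tested. FPKM of the size classes did not overlap for 17 of 63 members in pituitary (background 29.6%), 24 of 61 in gonad (background 53.9%), 20 of 51 in muscle (background 38.3%), 17 of 100 in brain (background 14.6%) and 10 of 32 in liver (background 38.2%). On the log2(FPKM + 1) scale the median of all genes was 0.05 in pituitary, 0.26 in gonad, 0.03 in muscle, -0.14 in brain and -0.51 in liver, so FPKM values and edgeR changes differ by about that much.

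**Figure D3:**
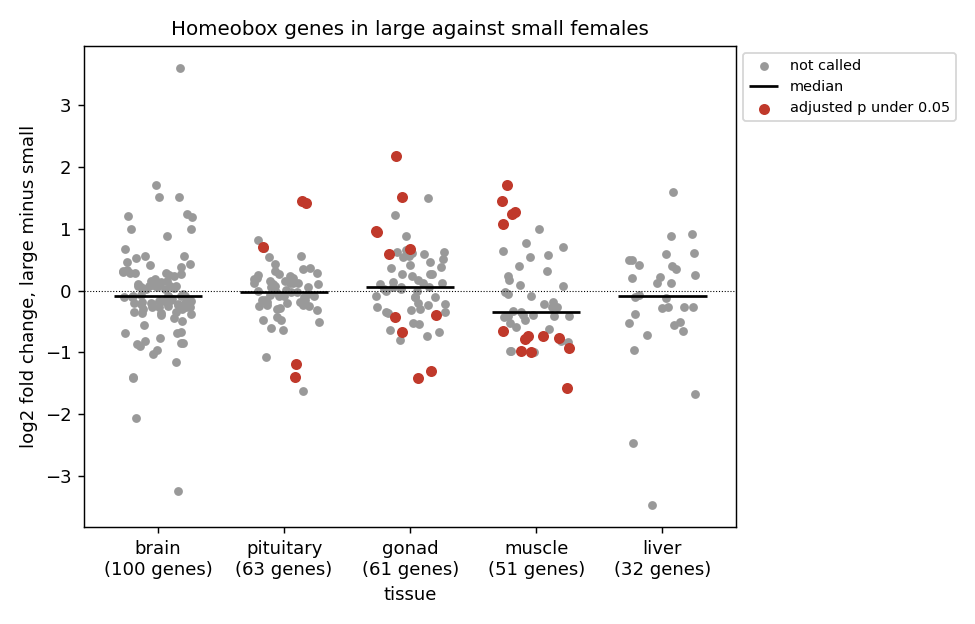
edgeR log2 fold change, large minus small, of every homeobox gene tested in each tissue (points), with genes at an adjusted p under 0.05 in red and the median of the members as a bar. The members centre near 0 except in muscle (median -0.35), and the called genes lie on both sides of 0 in pituitary, gonad and muscle.

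In pituitary, 3 members rose and 2 fell in large females (background 2.42% higher and 3.4% lower). Nkx2.2a, a factor of ventral neural tube and pancreatic islet fates, had 68.25, 51.01 and 74.97 FPKM in large and 19.38, 25.21 and 24.38 FPKM in small pituitary. The groups were far apart, and edgeR gave a log2 change of 1.45 (SE 0.17, adjusted p = 0.00322). An MSX-2-like gene (LOC103387396), of a family that answers to bone morphogenetic protein signals, had 9.28, 9.88 and 9.30 FPKM in large and 3.81, 2.5 and 3.96 FPKM in small pituitary, a log2 change of 1.42 (SE 0.19, adjusted p = 0.00609). Lhx4 had 34.05, 31.05 and 31.14 FPKM in large and 16.90, 19.22 and 20.90 FPKM in small pituitary, a log2 change of 0.71 (SE 0.11, adjusted p = 0.0108). None of the 3 overlapped between the size classes, nor did 29.6% of all genes tested in pituitary. Large replicate 2, with its raised brain markers, was the lowest large library for nkx2.2a and lhx4.

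The members that fell passed with larger p-values. Beside them the 3 blood cell markers summed to 9.45, 4.99 and 6.44 FPKM in large and 16.6, 14.2 and 13.8 FPKM in small pituitary, and their part was not tested. Dlx3, a distal-less gene of placodes and their derivatives, had 2.36, 3.04 and 4.18 FPKM in large and 6.57, 6.97 and 7.76 FPKM in small pituitary, a log2 change of -1.19 (SE 0.24, adjusted p = 0.0249). LOC103379293, a homeobox-containing protein 1-like gene, had 1.45, 0.75 and 1.25 FPKM in large and 2.53, 2.78 and 3.52 FPKM in small pituitary, a log2 change of -1.39 (SE 0.32, adjusted p = 0.0427). The Lhx1-like gene had 8.82, 25.07 and 21.01 FPKM in large and 40.71, 38.64 and 33.38 FPKM in small pituitary (log2 change -1.08, adjusted p = 0.0887). It was lower in every large library without passing the test by edgeR. The other pituitary factors did not pass: pitx1 had a log2 difference of -0.09, six3b averaged 93.7 ± 2.29 FPKM in large and 89.9 ± 4.17 FPKM in small pituitary, and lhx3 34.0 ± 3.73 and 28.6 ± 2.08 FPKM (SD, n = 3 each).

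**Figure D4:**
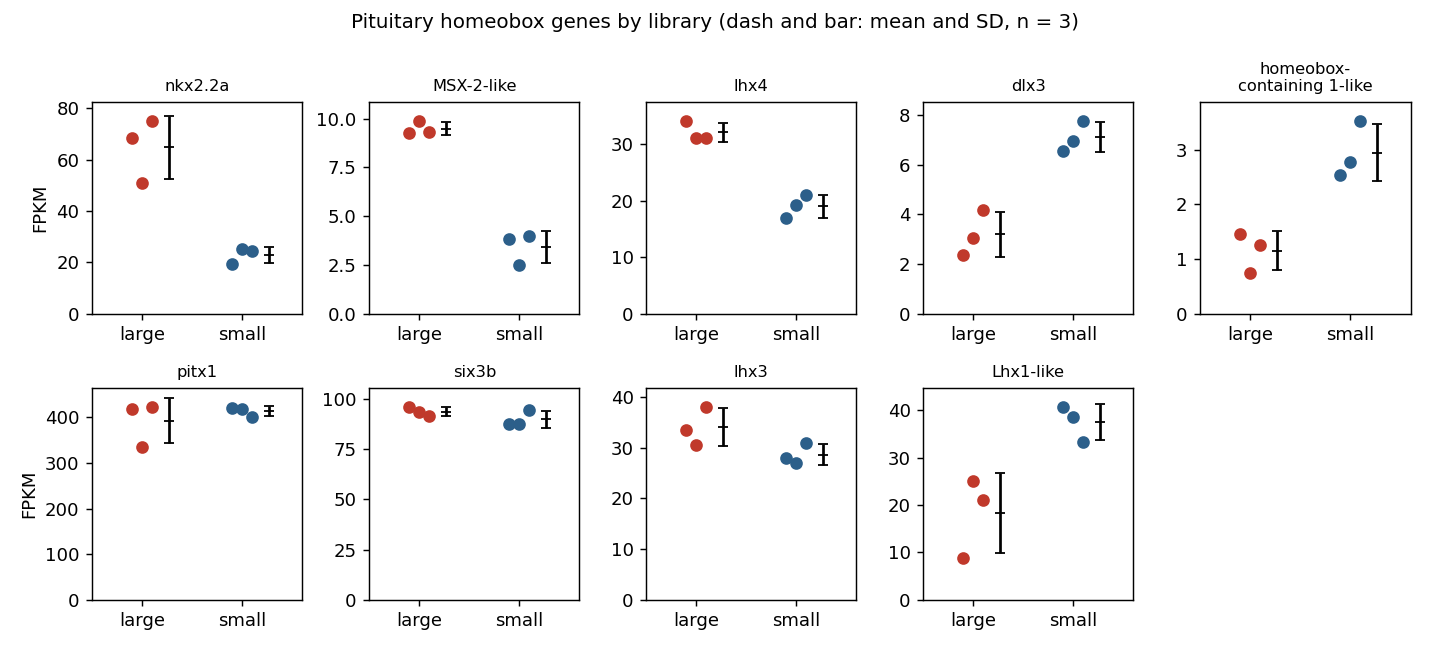
FPKM in the 3 large (left) and 3 small (right) pituitary libraries for the 5 members that changed (upper row) and 4 pituitary factors that did not pass the test (lower row), with mean and SD beside the points. Nkx2.2a, the MSX-2-like gene and lhx4 are higher in every large library, dlx3 and the homeobox-containing 1-like gene are lower, and pitx1 overlaps.

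Nkx2.2a and the MSX-2-like gene kept their call in 14 of 15 alternatives. The exception was the sum of the nearly alike small pituitary libraries into 1, which left 0 members and 0 genes of any kind called, with adjusted p of 0.596 and 0.489. Without large pituitary replicate 2, the library with raised brain markers, 5 members rose and 4 fell, with the Lhx1-like gene (adjusted p = 0.00376) among the falls, and without small replicate 1, 2 or 3, 2 rose and 0 fell each time.

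In gonad, 6 members rose (9.84%, background 10.9%) and 5 fell (8.2%, background 13.5%) in large females. Among those that rose, adnpa and adnp2, zinc-finger homeobox genes related to a mammalian chromatin regulator of brain development, moved together. Adnpa had 16.87, 18.97 and 19.08 FPKM in large and 9.29, 5.08 and 8.43 FPKM in small gonad, a log2 change of 0.97 (SE 0.18, adjusted p = 0.00555), and adnp2 averaged 7.25 ± 0.481 FPKM in large and 3.70 ± 0.526 FPKM in small gonad, a log2 change of 0.67. Tlx3 had 5.33, 5.27 and 5.4 FPKM in large and 2.71, 1.62 and 2.38 FPKM in small gonad, a log2 change of 0.95 (SE 0.23, adjusted p = 0.0181). Meis3, a Hox co-factor, had 3.02, 2.60 and 2.2 FPKM in large and 1.23, 0.31 and 0.64 FPKM in small gonad, a log2 change of 1.51 (SE 0.41, adjusted p = 0.0273). Hlx, known from gut and liver mesenchyme, had 1.22, 1.17 and 1.09 FPKM in large and 0.33, 0.31 and 0.06 FPKM in small gonad, on 58 counts in large and 10 counts in small libraries. LOC103394195 rose by 0.59 (SE 0.18, adjusted p = 0.0428). For these 6 the size classes did not overlap, as for 53.9% of all genes tested in gonad.

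The gonad members that fell included the oocyte genes, by little. Nanog averaged 863 ± 77.5 FPKM in large and 923 ± 94.1 FPKM in small gonad (SD, n = 3 each), the groups overlapped, and the edgeR log2 change was -0.40 (SE 0.10, adjusted p = 0.0219). Nobox had 11.47, 11.03 and 10.83 FPKM in large and 14.28, 11.26 and 10.95 FPKM in small gonad, with a log2 change of -0.43 (SE 0.12, adjusted p = 0.0315). The ovary markers moved beside both, at 88.1%, 89.8% and 88.8% of their gonad mean in large and 117%, 110% and 106% in small gonad, and their part was not tested. The third oocyte gene, Lhx8-like, averaged 33.8 ± 4.49 FPKM in large and 32.2 ± 7.75 FPKM in small gonad and did not pass (adjusted p = 0.344). Hoxb13, of the tail-end Hox group, had 4.94, 4.51 and 3.44 FPKM in large and 16.68, 4.04 and 7.66 FPKM in small gonad, a log2 change of -1.42 (SE 0.41, adjusted p = 0.0340). Mnx1, a motor neuron and pancreas gene, averaged 2.06 ± 0.49 FPKM in large and 4.09 ± 1.55 FPKM in small gonad, a log2 change of -1.30. The further Zhx3 locus had 11.88, 12.40 and 13.73 FPKM in large and 15.11, 18.14 and 16.11 FPKM in small gonad, a log2 change of -0.67.

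These gonad calls depended on the scaling and on the nearly alike large gonad libraries. With limma on log2(FPKM + 1), 12 members rose and 0 fell, as 84.0% of all called genes did, against 44.7% with edgeR, and nanog and nobox then had log2 differences of -0.09 and -0.11 where that of the median gene was 0.26. With the large gonad libraries summed to 1, 0 members were called, and without large replicate 1, 2 or 3 the calls were 1, 2 and 2, while adnpa kept its call in 14 of 15 alternatives.

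In muscle, 5 members rose (9.8%, background 13.1%) and 9 fell (17.6%, background 10.4%) in large females. Markers of other tissues differed too, and their part in these calls was not tested. The 3 blood cell markers summed to 23.5, 32.9 and 20.7 FPKM in large and 77.5, 73.4 and 78.9 FPKM in small muscle, and the liver markers stood at 2.52%, 0.215% and 0.183% of their liver level in large and 2.02%, 2.09% and 2.09% in small muscle. Muscle's own factors moved in opposite directions. Six4 had 28.01, 29.24 and 25.24 FPKM in large and 47.76, 43.92 and 46.10 FPKM in small muscle, a log2 change of -0.76 (SE 0.16, adjusted p = 0.00945). Meox2 fell as well, with 8.41, 12.38 and 11.71 FPKM in large and 19.36, 17.31 and 16.02 FPKM in small muscle, a log2 change of -0.73 (SE 0.20, adjusted p = 0.0287). Its paralogue meox1 rose, with 13.34, 18.23 and 22.58 FPKM in large and 7.64, 8.98 and 6.35 FPKM in small muscle, a log2 change of 1.24 (SE 0.26, adjusted p = 0.0105). The 2 paralogues, which act together in somites of the mouse, thus differed in direction. For neither did the size classes overlap, as for 38.3% of all genes tested in muscle. Six2 fell by 0.66 on the log2 scale (SE 0.17, adjusted p = 0.0243), with 6.81 ± 0.538 FPKM in large and 10.5 ± 0.415 FPKM in small muscle.

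Other muscle members that fell were arx, a forebrain and muscle factor, with 0.97, 0.69 and 0.45 FPKM in large and 2.46, 2.1 and 1.59 FPKM in small muscle (log2 change -1.57, SE 0.38, adjusted p = 0.0177). Of 18 zinc-finger and zipper genes tested, 4 fell (zhx3a, zeb1, zhx2 and homez, with log2 changes of -0.99, -0.92, -0.79 and -0.73), 1 rose (c13h8orf76, 1.08) and 13 did not pass, and their median was -0.49, against -0.35 for all members tested. The Hox-B6a-like gene, muscle's most abundant Hox gene, had 3.90, 4.15 and 2.14 FPKM in large and 8.21, 5.26 and 6.04 FPKM in small muscle (log2 change -0.98, SE 0.30, adjusted p = 0.0431). The Hox-A10-like gene LOC103394228 rose instead, with 1.40, 2.78 and 2.73 FPKM in large and 1.16, 0.79 and 0.85 FPKM in small muscle (log2 change 1.27, SE 0.37, adjusted p = 0.0358).

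The other 3 members that rose in muscle were typical of gonad. Nanog had 31.56, 84.47 and 29.99 FPKM in large and 17.17, 17.02 and 15.78 FPKM in small muscle, a log2 change of 1.44 (SE 0.29, adjusted p = 0.00798). As a share of its gonad mean that was 3.53%, 9.46% and 3.36% in large and 1.92%, 1.91% and 1.77% in small muscle. Nobox stood at 6.96%, 10.1% and 4.98% of its gonad mean in large and at 2.84%, 1.98% and 1.72% in small muscle, and c13h8orf76 at 6.92%, 18.1% and 7.31% in large and 4.71%, 6.10% and 3.72% in small muscle. The summed ovary markers moved beside them, at 4.36%, 11.1% and 4.16% in large and 1.92%, 2.11% and 2.11% in small muscle, with all 7 detected in every muscle library. The same library, large muscle replicate 2, was highest for the marker sum and for these 3 genes. Among further members typical of gonad, the Lhx8-like gene, hoxb13, hoxc12, hoxa10b, evx1 and nkx2.7 were also highest there. Mnx1 was highest in large replicate 1, dharma and mxtx1 in large replicate 3 and hoxc11 in small replicate 2. Mnx1, dharma, mxtx1 and hoxc11 reached at most 0.81 FPKM in any muscle library. Hoxb13, hoxc12, hoxa10b, evx1 and nkx2.7 were as low, at most 0.74 FPKM. The part of ovary RNA in all these values was not tested.

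**Figure D5:**
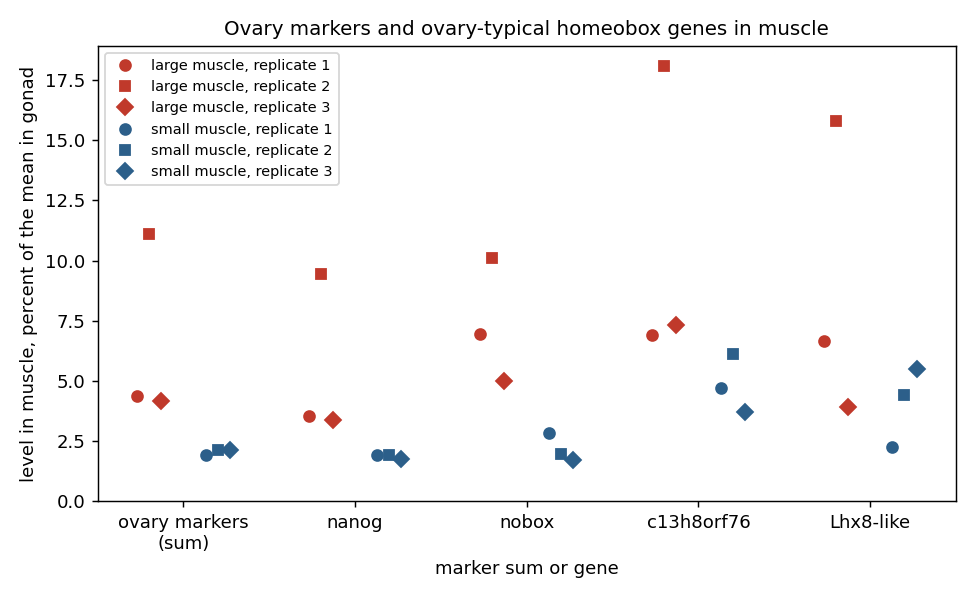
Level in muscle, in percent of the mean level in gonad, of the sum of 7 ovary markers and of 4 homeobox genes typical of gonad, in the 3 large (left) and 3 small (right) muscle libraries. Large replicate 2 is the highest point for the marker sum (11.1%) and for each gene shown, and nanog lies close to the marker sum in all 6 libraries. Mnx1, dharma, mxtx1 and hoxc11, which are not shown, were highest in other muscle libraries.

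With genes left out that were typical of another tissue (5 times its median or more), a choice made after seeing the data, 2 of 28 members rose in muscle (meox1 and LOC103394228) and 7 fell (background 21.7% in either direction). The calls left out were the rises nanog, nobox and c13h8orf76 and the falls zeb1 and zhx2. Without large muscle replicate 2, 3 members rose and 4 fell. Meox1 (log2 change 1.36) and six4 (-0.69) kept their calls without that library, and meox2 then had an adjusted p of 0.0589. Limma on log2(FPKM + 1) called 3 rises and 2 falls, the nearly alike small muscle libraries summed to 1 left 0 called, and without small replicate 1, 2 or 3 the calls were 2, 3 and 2.

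In brain no member passed, and the pattern of distal-less genes is given as values. Dlx2 had 2.98, 1.85 and 1.75 FPKM in large and 0.65, 0.82 and 1.04 FPKM in small brain, a log2 difference of 1.52 (SE 0.35, adjusted p = 0.490 by edgeR, unadjusted p = 0.00215). Dlx1, with which it pairs in forebrain interneurons that use GABA, had 8.86, 6.37 and 4.84 FPKM in large and 3.95, 3.47 and 3.66 FPKM in small brain. Dlx1, dlx2, dlx5 and dlx6 summed to 27.6, 17.1 and 16.7 FPKM in large and to 10.2, 14.0 and 9.59 FPKM in small brain, so the groups did not overlap, a set of genes singled out after their values were seen. The 13 brain markers did not overlap either and lay the same way, at 118%, 110% and 132% of their brain mean in large and 79.5%, 71.7% and 88.5% in small brain, and their part in the distal-less values was not tested. Otp, of hypothalamic neuroendocrine cells, had 1.78, 3.81 and 2.13 FPKM in large and 5.87, 7.79 and 3.77 FPKM in small brain (adjusted p = 0.697). Its other copy, the orthopedia B-like LOC103397626, had 2.09, 1.98 and 1.64 FPKM in large and 4.87, 3.91 and 2.77 FPKM in small brain (adjusted p = 0.690). Lhx1 averaged 2.34 ± 1.05 FPKM in large and 4.64 ± 1.04 FPKM in small brain, and shox 3.75 ± 1.22 and 6.64 ± 1.43 FPKM (SD, n = 3 each). Nanog had 2.79, 2.57 and 11.46 FPKM in large and 1.08, 0.37 and 0.13 FPKM in small brain (adjusted p = 0.535 by edgeR), and it was the 1 member that DESeq2 called (adjusted p = 0.00233). Its highest value came from large brain replicate 3, the brain library with raised ovary markers, and the part of these was not tested.

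In liver no member passed either. Hhex had 5.77, 9.49 and 5.20 FPKM in large and 21.29, 24.68 and 6.54 FPKM in small liver, and prox1 3.78, 5.46 and 5.39 FPKM in large and 9.94, 17.65 and 8.90 FPKM in small liver. Their edgeR log2 differences were -0.55 (SE 0.37, adjusted p = 0.431) and -0.50 (SE 0.30, adjusted p = 0.380). On the log2(FPKM + 1) scale the median change of all liver genes was itself -0.51. Pknox2 had 0, 0.17 and 0 FPKM in large and 1.54, 1.15 and 0.75 FPKM in small liver, on 3 counts in large and 56 counts in small libraries (adjusted p = 0.0701 by edgeR). A zinc finger homeobox protein 3-like gene, LOC103380080, had at most 0.09 FPKM in large and 0.38, 0.77 and 0.18 FPKM in small liver (adjusted p = 0.0827). DESeq2 called both of these, with adjusted p of 0.0224 and 0.0139. Without small liver replicate 3, edgeR called 3 members (pknox2, LOC103380080 and LOC103379293), all lower in large liver.

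The size effect differed between tissues for 17 of 141 members (12.1%, background 25.9%) by the edgeR F test over all 30 libraries. The log2 differences, large over small, in this fit are given here, and the call belongs to the difference between tissues, not to each tissue. Nkx2.2a had 1.46 in pituitary and -0.06 in brain, the tissues where it is abundant (adjusted p = 0.0490). The MSX-2-like gene had 1.43 in pituitary and -0.24 in brain (adjusted p = 0.0436). Meis3 had 1.48 in gonad, 0.14 in pituitary and -1.73 in liver (adjusted p = 0.00189). Nanog had -0.42 in gonad, 1.54 in muscle and 3.59 in brain (adjusted p = 0.00548), and nobox -0.46 in gonad and 1.81 in muscle (adjusted p = 0.00309). Both thus differed in sign between gonad, where they are abundant, and muscle, where the ovary markers moved beside them. The brain difference of nanog includes large brain replicate 3, the brain library with raised ovary markers. Adnpa had 0.95 in gonad and 0.01 in pituitary (adjusted p = 0.0337).

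Genes that work with homeobox proteins or share their DNA-binding fold were also looked up by name. Of 35 further homeodomain genes, 1 of 12 tested changed in pituitary (background 5.82%), 1 of 6 in gonad (background 24.5%) and 1 of 3 in muscle (background 23.5%). In brain 0 of 20 changed (background 0.0118%) and in liver 0 of 7 (background 1.31%). The gene in pituitary was isl1a, a LIM factor of pituitary and motor neurons, which fell in large females (log2 change -0.76, SE 0.09, adjusted p = 0.00439 by edgeR). That in gonad was satb1b, a chromatin organiser, which rose (1.43). In muscle pou5f3, the fish relative of the stem-cell factor Oct4, rose (1.79), with 18.96, 38.45 and 11.15 FPKM in large and 5.58, 6.88 and 5.97 FPKM in small muscle. Pou5f3 was highest in large muscle replicate 2, as the ovary markers were, and their part was not tested. Of 27 co-repressors and co-activators, 26 were tested in pituitary, where tle4 (-1.18) and lmo1 (-0.64) fell (background 3.4%) and tle5 (0.35) rose (background 2.42%). Eya2, a partner of sine oculis proteins, rose with ldb1 and rlim, both partners of LIM proteins, in large gonad. There 3 of 17 tested rose (background 10.9%) and 0 fell (background 13.5%). In muscle hipk3 (-1.64) and tle3a (-0.84) fell among 20 tested (background 10.4%). In liver tle2a rose (2.27) among 18 (background 1.31% in either direction). Of 32 Polycomb and trithorax genes, which hold Hox genes off or on, 3 of 28 tested rose in large gonad (cbx2, cbx8 and men1, background 10.9%). In large muscle 4 of 26 fell (kmt2a, kmt2b, kmt2d and ezh1, background 10.4%), with log2 changes of -0.98 to -1.13. None passed in brain, pituitary or liver. The median log2 change of this list was 0.19 in gonad and -0.18 in muscle, against 0.03 for all genes in each. Of 18 retinoic acid genes, an inducing signal of Hox genes, 1 of 5 tested rose in gonad (background 10.9%), the receptor rara (0.67). In muscle 2 of 12 tested rose (background 13.1%), rara (1.07) and dhrs3, which lowers retinal (1.27), and 1 fell (background 10.4%), ncor1 (-0.73). Both rises were highest in large muscle replicate 2, as the ovary markers were, and the part of these was not tested. In pituitary 1 of 14 tested rose (background 2.42%), rxra (0.72), and 1 fell (background 3.4%), rdh10, which makes retinal (-0.69). The backgrounds are those given for each tissue above.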

How the data were processed

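The deposited table held, per the file headers, an FPKM value and an estimated count for each of 22292 genes in 30 libraries. Each library held RNA of 2 pooled fish, extracted with Trizol, per the labels. The submitters' processing notes list edgeR. Which aligner, counting tool and build were used is not given in the sources used here, so no coordinates are printed. Of the estimated counts deposited by the authors, 2.0% were not whole (any fraction), and they were rounded. Homeobox members were found by their description. Of 226, 224 carried NCBI gene numbers and 219 matched the RefSeq gene table of the assembly Cse_v1.0, used for symbols and neighbours only; no sequence was used here. Members and gene lists were chosen with earlier results of these data known.

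Size classes were compared within a tissue on 6 libraries with the quasi-likelihood test of edgeR 4.0.16 under R 4.3.3 (filterByExpr, TMM, two-sided, Benjamini-Hochberg over all genes tested, threshold 0.05). Tissues, and the difference of the size effect between tissues (F test of 4 contrasts), were tested over 30 libraries. SEs were taken as the absolute log2 change divided by the root of F. All calls were on the whole table and only member rows are given; results for a few members are not reported here. The tests were checked on simulated data. Named genes were members called for size, the 8 highest by mean FPKM per tissue, and members of set roles in pituitary, brain, gonad, muscle, liver and Hox clusters. Alternatives were DESeq2 1.42.0, median-of-ratios scaling, other filters on low counts, limma 3.58.1 on log2(FPKM + 1) and log2(FPKM + 0.1), all 30 libraries, a replicate block, nearly alike libraries summed to 1, and fits without each library in turn. Added after seeing the data were the removal of genes with a median FPKM 5 times higher or more in another tissue, and a minimum mean of 1 FPKM in the tissue compared. Tables and figures used Python 3.11.15, pandas 2.3.3, numpy 2.4.6 and matplotlib 3.10.9.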

Additional observations from a re-analysis of the deposited data

Results flagged for a closer look

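For 17 members the effect of size differed between tissues, by the edgeR F test of 4 contrasts over 30 libraries. The adjusted p was 0.00189 for meis3, 0.00309 for nobox, 0.00548 for nanog, 0.00732 for pknox2, 0.00869 for hdx, 0.00895 for dlx3, 0.0137 for LOC103380080, 0.0166 for pitx1, 0.0242 for zhx3a, 0.0265 for zeb1, 0.0337 for adnpa, 0.0364 for arx, 0.0370 for hoxd3, 0.0430 for zhx2, 0.0436 for LOC103387396 (MSX-2-like), 0.0481 for msx2b and 0.0490 for nkx2.2a. Where they are abundant, hdx had a log2 difference (large over small) of -0.11 in gonad and pitx1 one of -0.08 in pituitary, and the largest difference of hdx was 0.82 in liver. In muscle pitx1 had 12 counts in large and 0 counts in small libraries and was not tested on its own, so no fold is given. Dlx3 differed by -1.18 in pituitary and by 1.46 in gonad. In muscle dlx3 had 26 counts in large and 1 count in small libraries, did not overlap in FPKM and was not tested on its own. Msx2b differed by -1.61 in pituitary, where it had 0.56, 0.43 and 0.30 FPKM in large and 1.23, 1.14 and 1.53 FPKM in small females.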

How the results depend on the processing

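With DESeq2, calls between the size classes were 1 in brain and 2 in liver, where edgeR had 0 in both; with all 30 libraries brain had 1, pituitary 2, gonad 4 and liver 7; with no filter on low counts 4 in liver; with limma on log2(FPKM + 1) 3 in liver and 5 in muscle, and with a pseudocount of 0.1, 2 in liver and 5 in muscle. With nearly alike libraries summed to 1 they were 0 in pituitary, gonad and muscle, and without genes typical of another tissue 9 in muscle. Leaving out each library gave brain 0 to 0, pituitary 2 to 9, gonad 1 to 13, muscle 2 to 16 and liver 0 to 3 calls. Members higher than the mean of the other tissues then numbered 86 to 97 (brain), 46 to 52 (pituitary), 17 to 23 (liver), 47 to 54 (gonad) and 43 to 51 (muscle), and 11 to 20 differed in size effect between tissues. Required to be higher than each other tissue, brain counted 40, pituitary 20, gonad 25, muscle 17 and liver 4. Limma on log2(FPKM + 1) gave 6 in liver, 22 in muscle and 37 for the difference between tissues, a pseudocount of 0.1 gave 7 in liver and 28 in muscle, and a minimum mean of 1 FPKM 9 in liver and 31 in muscle. No named size change reversed its direction. The cause of these differences was not tested, beyond the fewer libraries or genes that some settings hold.

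Replicate numbers were not taken to pair the libraries. Same-numbered large and small libraries, which hold different fish, had deviations correlated by -0.08 to 0.23 (3 of 15 over 0.1), with all 3 numbers over 0.1 in 0 of 5 tissues. Same-numbered libraries of different tissues correlated by -0.08 to 0.32 (9 of 60 over 0.1), with all 3 over 0.1 in 1 of 20 sets, large pituitary and liver (0.15, 0.32 and 0.18). With a replicate block brain had 0, pituitary 4, gonad 9, muscle 11 and liver 0 calls, and 86, 46, 18, 46 and 47 members were higher in brain, pituitary, liver, gonad and muscle, with 13 for the difference between tissues. Size calls with an adjusted p over 0.05 under the block were LOC103379293 (0.0768) in pituitary, nobox (adjusted p = 0.0539) and LOC103394195 (0.0853) in gonad, and six2 (0.0510), LOC103393559 (0.0540) and LOC103394228 (0.0514) in muscle.

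Precision was limited by 3 pools of 2 fish per group. Members under about 1 FPKM rest on few counts: a floor of 3 counts per library stands behind any value of 0, and it covers counting error only. A change missed in brain or liver is not shown to be absent.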

Other observations

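The gonad also held low levels of genes known from the first hours of the zebrafish embryo. Goosecoid (gsc), of the dorsal organizer, averaged 5.90 FPKM, with 4.79, 5.43 and 5.42 FPKM in large and 4.42, 5.80 and 9.53 FPKM in small gonad. Evx1, of the ventral and tail-forming side, averaged 4.08 FPKM, mxtx1, of the yolk syncytial layer, 2.89 FPKM, dharma, which starts the organizer, 2.12 FPKM and noto, of the notochord, 1.18 FPKM. Evx1, mxtx1, dharma and gsc were higher in gonad than in each other tissue by edgeR. Between large and small gonad, gsc had an adjusted p of 0.104 by edgeR, evx1, mxtx1 and dharma did not pass either, and noto was not tested. In brain, markers of single neuron classes were present at low levels, such as dmbx1, of midbrain, at 2.60 FPKM, and uncx at 1.33 FPKM. The retinal and hypothalamic gene rax was detected in pituitary at 1.24 FPKM and in brain at 44.3% of that level.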
